A study of Mus musculus with 52 samples.

Results

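The 8 genes described here are 6 ligands of the epidermal growth factor receptor, the receptor itself and its induced inhibitor: Areg, Ereg, Hbegf, Btc, Egf, Tgfa, Egfr and Errfi1. They were chosen by name, with their levels by group, in TPM (a length-corrected share of each library's transcripts), already known, so their own values and differences are given as a description. They are 8 of 55487 genes in the tables of the first KA brain cohort and of the CNO brain model (KA and CNO are the agents as the labels abbreviate them), and 8 of 53700 in the astrocyte table. In the second KA cohort, whose table holds 34042 genes, 7 were analysed and Areg was not analysed here. RNA sequencing was available for 52 libraries from C57BL/6 mice, 27 of cultured astrocytes and 25 of brain. The series title concerns lipid-laden reactive astrocytes and seizures.

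The astrocytes formed 9 groups of 3 libraries. Apoe knockout astrocytes, which lack apolipoprotein E, a lipid carrier, were given palmitic acid (a saturated fatty acid), oleic acid (a monounsaturated one) or neuronal conditioned medium, or were left untreated. Wild-type astrocytes were given palmitic acid, oleic acid, medium conditioned by Apoe knockout neurons ("knockout neuronal medium") or by neurons with no knockout named ("neuronal medium"), or were left untreated. Titles of the libraries given a neuronal medium carry KA. The first brain cohort held 3 KA and 3 untreated libraries, and the CNO model, in which brain carries the label of a CNO-induced epileptic model, 3 CNO and 3 untreated libraries. The second cohort held 3 libraries of Apoe knockout brain with KA, 3 labelled A2aR knockdown with KA, 4 with KA alone and 3 untreated. Untreated brain carries the same model label as treated brain. The sources used here give no dose, time, brain region, age or sex, nor the purity of the cultures or how the knockdown was made.

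Epidermal growth factor receptor ligands are made as membrane-anchored precursors. Metalloproteases, above all ADAM17 with its iRhom partners (Rhbdf1 and Rhbdf2), cut them free, and the released ligand brings receptors together and starts signalling through RAS and ERK. ERK then induces genes that damp the pathway, among them Errfi1 (also called MIG6), which binds the receptor's kinase domain, and the Sprouty, Spred and dual-specificity phosphatase genes. In brain, astrocytes carry the receptor and ligands of the family are known for driving astrocyte reactivity and proliferation after injury.

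Areg, Ereg and Btc lie near each other on chromosome 5 (mm10, GENCODE M21), with the non-coding RNA gene Gm19619 between Areg and Btc. Ereg spans chr5:91074622-91093646 and Areg chr5:91139599-91148432, both on the plus strand, with 45952 bases between them. Btc spans chr5:91357261-91402994 on the minus strand, 208828 bases beyond the end of Areg. The promoters below are RefSeq's on GRCm38.p6, 250 bases before and 50 from the transcription start, and 6 of the 8 genes had an entry, with 8 windows in all. The letters of 5 short motifs were searched on both strands: TGACGTCA (the cAMP response element), TGANTCA (a loose form of the AP-1 element, with any base at N), TATAAA, the CArG box and CCAAT. Areg and one of the 2 Errfi1 windows are shown because these were the 2 of 8 windows that hold TGACGTCA. Btc is shown as a ligand gene near Areg with none of the motifs. Capitals mark motif matches.

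Areg, chr5:91139349-91139648, plus strand: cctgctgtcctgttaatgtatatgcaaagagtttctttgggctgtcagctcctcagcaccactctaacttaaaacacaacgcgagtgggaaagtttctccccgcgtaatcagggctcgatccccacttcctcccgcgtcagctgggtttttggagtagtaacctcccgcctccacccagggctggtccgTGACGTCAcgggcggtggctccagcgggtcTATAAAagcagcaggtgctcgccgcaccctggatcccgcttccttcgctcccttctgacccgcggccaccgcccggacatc
Errfi1, chr4:150854820-150855119, plus strand: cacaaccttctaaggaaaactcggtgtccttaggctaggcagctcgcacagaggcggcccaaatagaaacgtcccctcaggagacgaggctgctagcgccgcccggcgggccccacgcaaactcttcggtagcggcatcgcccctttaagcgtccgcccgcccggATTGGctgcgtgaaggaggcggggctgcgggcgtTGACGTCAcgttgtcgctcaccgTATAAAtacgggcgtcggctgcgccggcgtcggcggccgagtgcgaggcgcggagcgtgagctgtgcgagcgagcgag
Btc, chr5:91402945-91403244, minus strand: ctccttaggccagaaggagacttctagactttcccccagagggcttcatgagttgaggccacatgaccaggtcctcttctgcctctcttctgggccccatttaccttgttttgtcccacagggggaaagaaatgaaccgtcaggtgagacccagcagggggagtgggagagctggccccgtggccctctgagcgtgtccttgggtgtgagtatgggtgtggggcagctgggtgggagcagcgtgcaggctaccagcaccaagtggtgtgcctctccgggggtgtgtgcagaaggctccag

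In Areg, TGACGTCA begins 61 bases and TATAAA 31 bases before the start. In this Errfi1 window TGACGTCA begins 51 bases and TATAAA 28 bases before the start, and CCAAT, on the other strand as ATTGG, 85 bases before it. None of these matches overlap each other. Of 32851 promoters of the same length, 1.79% hold TGACGTCA, 7.81% TGANTCA, 13.6% TATAAA, 1.63% a CArG box and 37.4% CCAAT, and 0.17% hold both TGACGTCA and TATAAA. The other Errfi1 window and those of Egf, Tgfa, Egfr and Btc held none of the 5 motifs. A match in letters is a description of the sequence and does not show that a factor binds there.

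TPM carry no depth, so the reads behind them are unknown; the second cohort, which also has counts, held 68760648 to 76643829 per library. The labels were checked first. Apoe stood at 40.4 to 47.1 TPM in untreated Apoe knockout astrocytes, against 4234 to 5024 TPM in untreated wild-type ones, and at 29.7 to 58.6 TPM in Apoe knockout brain with KA, against 830 to 1467 TPM with KA alone. Adora2a, the gene of the A2aR receptor, was at 1.75 to 2.15 TPM in libraries labelled A2aR knockdown, against 1.32 to 2.90 TPM with KA alone, so the label was not seen in its transcript. All 8 astrocyte markers reached 1 TPM in at least 1 library of every astrocyte group. Their summed level, however, was 45.7 to 58.1 TPM in Apoe knockout astrocytes with palmitic acid and 450 to 464 TPM in untreated knockout ones, against 615 to 759 TPM in wild-type ones with palmitic acid and 2069 to 2321 TPM in untreated wild-type ones. Summed markers of mural cells and fibroblasts were 652 to 722 TPM in knockout astrocytes with palmitic acid, 3918 to 3988 TPM in untreated knockout, 1479 to 1709 TPM in wild-type with palmitic acid and 4576 to 5019 TPM in untreated wild-type ones. Microglial markers, 6 in all, summed to 9.63 to 12.2 TPM in knockout astrocytes with palmitic acid, 95.6 to 111 TPM in untreated knockout, 220.5 to 258 TPM in wild-type with palmitic acid and 117 to 136 TPM in untreated wild-type ones. With oleic acid microglial markers summed to 301.5 to 374 TPM in knockout and 224 to 255.5 TPM in wild-type astrocytes, and astrocyte markers to 457 to 461 and 1037 to 1064 TPM. Mural and fibroblast markers there summed to 2471 to 2972 TPM in knockout and 1974 to 2249 TPM in wild-type astrocytes. Knockout astrocytes with neuronal medium had 1117 to 1212 TPM of astrocyte markers. Xist was at 2.79 to 3.81 TPM in untreated knockout astrocytes, against 30.7 to 36.8 TPM in untreated wild-type ones. In the second cohort it was at 0.0255 to 0.272 TPM in KA brains, against 122 to 145 TPM in untreated ones. Ddx3y, a Y-linked gene, was at 0.52 to 1.35 TPM with oleic acid and 3.22 to 4.49 TPM with palmitic acid in wild-type astrocytes, against 14.92 to 19.07 TPM untreated. In knockout astrocytes it was at 14.25 to 15.16 TPM with oleic acid, against 31.31 to 33.46 TPM untreated. Xist in knockout astrocytes was at 0.0 to 0.05 TPM with palmitic acid and 7.12 to 8.55 TPM with neuronal medium. In wild-type astrocytes Xist was at 6.57 to 15.03 TPM with oleic acid and 15.54 to 20.97 TPM with palmitic acid. In knockout astrocytes Xist was at 2.12 to 2.72 TPM with oleic acid, and Ddx3y at 1.86 to 15.68 TPM with palmitic acid. Both transcripts were thus lower than untreated with either acid, and the sex make-up there was not tested. Sex and group cannot be told apart between untreated genotypes, with neuronal medium in knockout astrocytes, or between KA and untreated brain in the second cohort. The part of these differences in the results below was not tested.

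Areg, the gene of amphiregulin, spanned the widest range of the 8 genes in astrocytes, 0.14 to 512.46 TPM. It was at 61.88, 60.36 and 55.4 TPM in untreated Apoe knockout astrocytes, against 0.22, 0.29 and 0.32 TPM in untreated wild-type ones. The group means were 59.2 ± 3.39 and 0.277 ± 0.0513 TPM (SD, n = 3 each), a ratio of 214 and a difference of 5.56 ± 0.12 (SE) in log2(TPM + 1). It was higher with palmitic acid in both genotypes, and no library given the acid overlapped the untreated ones. With palmitic acid Areg was at 395.22, 512.46 and 474.43 TPM in knockout astrocytes, 7.78 times the untreated knockout mean, and at 97.97, 116.69 and 108.68 TPM in wild-type ones, 390 times the untreated wild-type mean. The log2 differences were 2.93 ± 0.12 in knockout and 6.41 ± 0.12 in wild-type astrocytes. These log2 values understate the change where the untreated level is under 1 TPM, as in wild type.

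With oleic acid Areg lay on opposite sides of the untreated level in the genotypes. It was at 20.13, 20.56 and 26.87 TPM in knockout astrocytes, below every untreated knockout library, with a log2 difference of -1.37 ± 0.12. In wild-type astrocytes oleic acid went with 5.37, 4.97 and 5.49 TPM, above every untreated wild-type library, with a log2 difference of 2.30 ± 0.12. The sums of microglial and of mural and fibroblast markers given above did not overlap untreated ones of the same genotype with oleic acid, nor, in wild-type astrocytes, did astrocyte markers, nor in both genotypes the share of TPM from mitochondrial transcripts, at 4.04 to 4.53% in knockout and 2.96 to 3.98% in wild-type astrocytes, against 6.41 to 6.64% in untreated knockout and 5.53 to 6.83% in untreated wild-type ones; their part was not tested. Neuronal medium went with 8.52, 10.3 and 7.97 TPM in knockout astrocytes, the lowest of the knockout groups. Wild-type astrocytes had 0.54, 0.42 and 0.14 TPM with neuronal medium and 0.55, 0.33 and 0.49 TPM with knockout neuronal medium, within reach of the untreated wild-type libraries. Ordered by mean, the groups ran from knockout with palmitic acid at 461 TPM through wild type with palmitic acid at 108, untreated knockout at 59.2, knockout with oleic acid at 22.5, knockout with neuronal medium at 8.93 and wild type with oleic acid at 5.28 TPM, each without overlap with the next. The last 3, the wild-type groups with either medium or none, overlapped their neighbours.

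Ereg, the gene of epiregulin, followed nearly the same order, over a narrower range. Untreated knockout astrocytes had 29.88, 29.37 and 29.79 TPM, against 1.0, 1.34 and 1.19 TPM in untreated wild-type ones, a log2 difference of 3.82 ± 0.26. With palmitic acid the knockout libraries had 31.74, 104.91 and 80.47 TPM, of which the first stood just above the untreated knockout libraries. Wild-type astrocytes with palmitic acid had 37.67, 43.76 and 40.68 TPM, 34.6 times their untreated mean. The log2 difference with palmitic acid was 1.10 ± 0.26 in knockout and 4.26 ± 0.26 in wild-type astrocytes. The knockout value was 1.60 without its first palmitic acid library and 0.75 without its second. Oleic acid went with 10.34, 8.81 and 10.3 TPM in knockout astrocytes, below untreated, and with 4.62, 2.32 and 3.87 TPM in wild-type ones, above untreated. Neuronal medium went with 6.47, 6.89 and 6.47 TPM in knockout astrocytes, and the wild-type libraries with either medium had 0.63 to 1.14 TPM.

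Hbegf, the gene of heparin-binding EGF-like growth factor, was the most abundant ligand transcript in 8 of the 9 astrocyte groups and varied far less. It was highest in wild-type astrocytes with palmitic acid, at 685.76, 663.98 and 662.27 TPM, against 230.92, 235.52 and 219.38 TPM in untreated wild-type ones, a log2 difference of 1.55 ± 0.09. Oleic acid went with 408.1, 350.01 and 350.26 TPM in wild-type astrocytes, again above every untreated library. Knockout astrocytes had 284.0, 329.57 and 320.2 TPM with palmitic acid, against 279.3, 259.16 and 263.03 TPM untreated, a log2 difference of 0.22 ± 0.09. Untreated knockout astrocytes lay above untreated wild-type ones by 0.22 ± 0.09. With palmitic acid the highest ligand was thus Areg in knockout astrocytes and Hbegf in wild-type ones. With neuronal medium Hbegf was slightly lower in wild-type astrocytes, at 184.55, 217.36 and 206.03 TPM, without overlap with the untreated libraries.

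The make-up of the ligand transcripts shows this on one scale, since TPM is per length. Hbegf made up 34.3 to 39.5% of the summed TPM of the 6 ligands in knockout astrocytes with palmitic acid, 72.0 to 73.0% in untreated knockout, 79.4 to 82.3% in wild type with palmitic acid and 97.4 to 97.6% in untreated wild type. Areg made up 53.3 to 54.9% in knockout astrocytes with palmitic acid, 15.4 to 16.8% in untreated knockout, 11.8 to 14.0% in wild type with palmitic acid and 0.0927 to 0.142% in untreated wild type. The summed ligand level with palmitic acid was 856 ± 124 TPM in knockout and 831 ± 7.10 TPM in wild-type astrocytes, the wild-type mean within the wide knockout spread. It was 368 ± 14.0 TPM in untreated knockout, against 234.5 ± 8.64 TPM in untreated wild-type astrocytes (SD, n = 3 each).

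**Figure D1:**
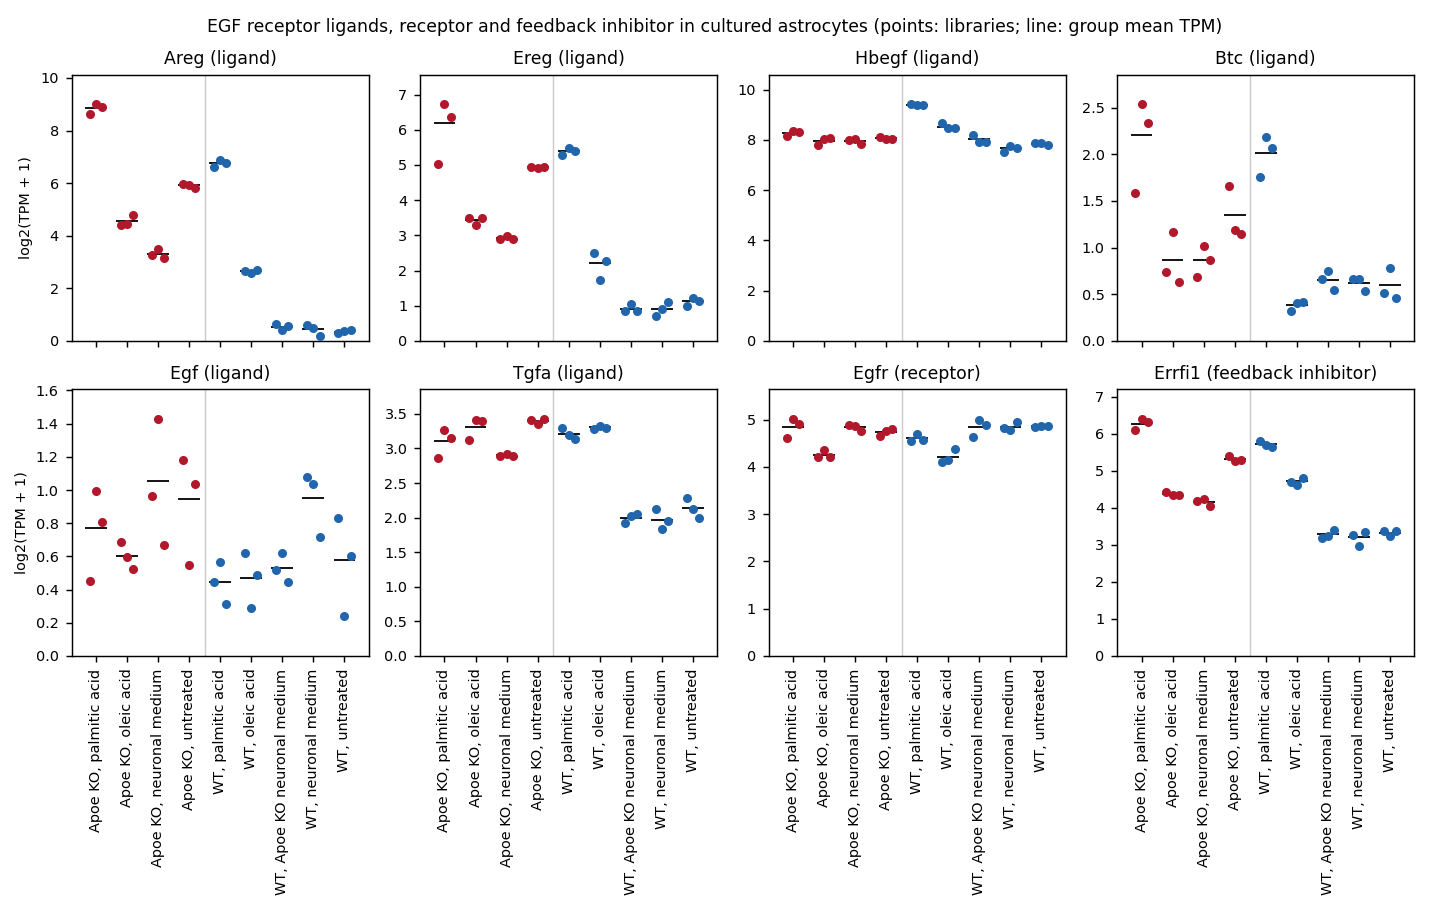
Level of each gene as log2(TPM + 1) in 27 astrocyte libraries, with each panel on its own axis; points are libraries, lines the group means, red Apoe knockout and blue wild type. Areg, Ereg and Errfi1 are high in untreated knockout astrocytes and with palmitic acid in both genotypes, while Egfr keeps between 16.25 and 31.27 TPM.

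The remaining ligands were at lower levels. Tgfa, the gene of transforming growth factor alpha, was at 9.69, 9.19 and 9.74 TPM in untreated knockout astrocytes, against 3.86, 3.35 and 3.0 TPM in untreated wild-type ones. Wild-type astrocytes reached 8.85, 8.12 and 7.8 TPM with palmitic acid and 8.75, 9.06 and 8.83 TPM with oleic acid, close to the untreated knockout level. Knockout astrocytes were at 6.25 to 8.66 TPM with palmitic acid, below every untreated knockout library (log2 difference -0.30 ± 0.10, or -0.00 with libraries scaled by their median ratio). They were at 7.72 to 9.61 TPM with oleic acid and 6.39 to 6.57 TPM with neuronal medium. Btc, the gene of betacellulin, was at 1.99, 4.8 and 4.03 TPM in knockout and at 2.38, 3.53 and 3.2 TPM in wild-type astrocytes with palmitic acid, against 2.17, 1.28 and 1.21 TPM in untreated knockout and 0.43, 0.72 and 0.38 TPM in untreated wild-type ones. The knockout groups overlapped for Btc and the wild-type groups did not. Egf, the founding ligand, was at 0.18 to 1.69 TPM throughout, and each group overlapped the next in order.

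Egfr, the receptor, varied least. It was at 24.17, 26.08 and 27.0 TPM in untreated knockout astrocytes, against 27.88, 28.22 and 28.07 TPM in untreated wild-type ones, lower without overlap but by only -0.12 ± 0.10 in log2(TPM + 1). Both genotypes were lowest with oleic acid, at 17.48, 19.56 and 17.47 TPM in knockout and 16.25, 16.76 and 19.86 TPM in wild-type astrocytes, with log2 differences from untreated of -0.48 ± 0.10 and -0.65 ± 0.10. With palmitic acid the receptor was at 23.49, 31.27 and 28.93 TPM in knockout and at 22.38, 24.98 and 22.85 TPM in wild-type astrocytes.

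Errfi1, the inhibitor, was high in the same groups as Areg and Ereg. It was at 41.44, 37.69 and 38.18 TPM in untreated knockout astrocytes, against 9.31, 8.37 and 9.31 TPM in untreated wild-type ones, a log2 difference of 2.0 ± 0.09. With palmitic acid it was at 67.53, 83.37 and 78.69 TPM in knockout astrocytes and at 55.4, 51.04 and 48.81 TPM in wild-type ones, above untreated in every library of both genotypes. Oleic acid went with 20.35, 19.51 and 19.51 TPM in knockout astrocytes, below untreated, and with 25.19, 23.42 and 27.09 TPM in wild-type ones, above untreated. Neuronal medium went with 17.11, 17.71 and 15.57 TPM in knockout astrocytes and 8.64, 6.86 and 9.17 TPM in wild-type ones.

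Set against untreated cells of the same genotype, the knockout responses to palmitic acid lay below the wild-type ones for all of the genes but Egfr, at 0.36 ± 0.14, with Egf at -0.05 ± 0.28. With libraries scaled by their median ratio Egfr was at 0.71, Egf at 0.09 and Btc at -0.34. The difference between the responses (knockout minus wild type) with palmitic acid was -3.48 ± 0.18 for Areg, -3.16 ± 0.37 for Ereg, -1.45 ± 0.13 for Errfi1, -1.38 ± 0.15 for Tgfa, -1.33 ± 0.12 for Hbegf and -0.60 ± 0.28 for Btc. With oleic acid it was -3.66 ± 0.18 for Areg, -2.56 ± 0.37 for Ereg and -2.34 ± 0.13 for Errfi1, where the genotypes moved in opposite directions. With neuronal medium it was -2.69 ± 0.18 for Areg, -1.80 ± 0.37 for Ereg and -1.05 ± 0.13 for Errfi1, for which the medium and untreated libraries overlapped in wild-type and not in knockout astrocytes. In TPM, by contrast, the increase of Areg with palmitic acid was larger in knockout than in wild-type astrocytes, as the levels above show.

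**Figure D2:**
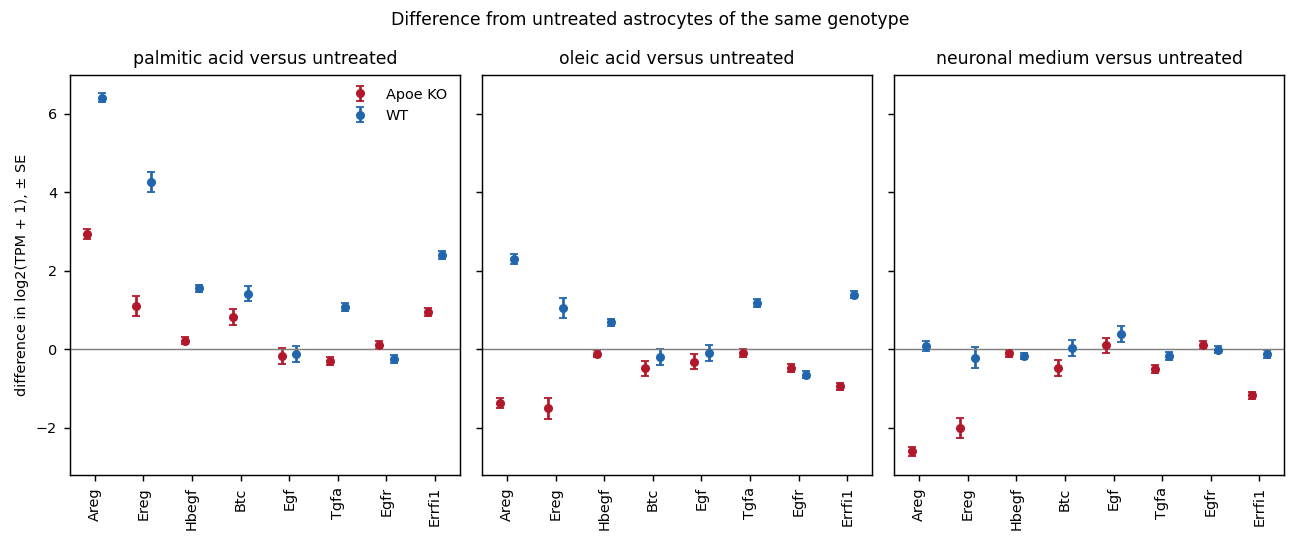
Difference in log2(TPM + 1) from untreated astrocytes of the same genotype for each gene, with palmitic acid, oleic acid and neuronal medium; points are estimates, bars ± SE from the fit over all genes, red Apoe knockout and blue wild type. With oleic acid Areg is at -1.37 in knockout and 2.30 in wild-type astrocytes.

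The same fit over all genes placed these values beside the background, from which nothing is read about genes chosen with these contrasts known. Of the 8 genes, 6 passed an adjusted p of 0.05 between untreated genotypes (44.9% of 16161 genes tested did), 6 with palmitic acid in knockout (75.3%) and 7 in wild-type astrocytes (59.8%), and 4 with oleic acid in knockout (41.8%) and 6 in wild-type ones (59.8%). With neuronal medium 4 passed in knockout astrocytes (31.2%) and 0 in wild-type ones (0.0371%), where 0 of 8 had an unadjusted p under 0.05. Only Hbegf passed between the neuronal media (1.42%), at 292.42, 242.22 and 242.75 TPM with knockout neuronal medium, against 184.55, 217.36 and 206.03 TPM with neuronal medium, and it passed in 1 of 11 alternative settings. For the difference between genotypes in response, 6 passed with palmitic acid (57.6%), 5 with oleic acid (29.6%) and 3 with neuronal medium (18.5%). With palmitic acid in knockout astrocytes the median of all genes was -0.47, or -0.24 with libraries scaled by their median ratio; on that scale Hbegf differed by 0.55, Egfr by 0.43 and Tgfa by -0.00, against 0.22, 0.10 and -0.30 unscaled. Mitochondrial transcripts made up 1.51 to 2.94% of TPM in that group and 6.41 to 6.64% in untreated knockout astrocytes, and their part in these values was not tested.

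Other genes of the pathway, 37 in 6 lists, were tested over all genes, and 35 were measured in astrocytes. Between untreated genotypes 15 were higher and 9 lower in knockout astrocytes, with a median difference of 0.25 over the 35 and 0.05 over all genes tested, of which 44.9% passed, 3855 higher and 3403 lower. Of 8 targets of ERK, 6 were higher and 0 lower (median 1.079), and of 10 feedback inhibitors 6 were higher and 1 lower (median 0.39). Phlda1, a target of ERK, was at 115 ± 6.27 TPM in untreated knockout astrocytes, against 18.7 ± 1.43 TPM in untreated wild-type ones (log2 difference 2.55 ± 0.08, limma adjusted p = 1.39e-16). Egr1, an immediate early transcription factor, differed by 3.11 ± 0.28, Dusp5, a nuclear ERK phosphatase, by 1.20 and Shc1, an adaptor that couples the receptor to RAS, by 1.00. Among the genes that were lower, Nrg2, a neuregulin, differed by -1.03 ± 0.18, Gab1, a docking protein, by -0.66, Timp3, an inhibitor of the shedding proteases, by -0.59 and Cblb, a ubiquitin ligase, by -0.54. Shedding genes, a list that counts the inhibitor Timp3 with the proteases, split, with 1 higher and 2 lower of 5. Relay genes split as well, with 1 higher and 2 lower of 6.

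In wild-type astrocytes with palmitic acid, 20 of the 35 genes rose and 8 fell (median 0.38, against -0.08 over all genes), where 59.8% of all genes passed, 4325 higher and 5343 lower. All 8 targets of ERK rose (median 2.74), and 7 of 10 feedback inhibitors rose and 1 fell (median 1.00). Phlda1 was at 206 ± 7.23 TPM with palmitic acid, against 18.7 ± 1.43 TPM untreated (log2 difference 3.40 ± 0.08, limma adjusted p = 1.35e-18), and Fosl1, an AP-1 subunit, was at 117 ± 2.63 TPM against 2.48 ± 0.495 TPM (5.09 ± 0.30). Dusp5 rose by 2.94 ± 0.09 and Myc by 2.93 ± 0.12. Of 5 shedding genes 1 rose and 4 fell, with Timp3 at 184 ± 22.6 TPM against 886 ± 14.1 TPM (-2.27 ± 0.11) and Rhbdf1 at -0.42. The proteases Adam10, at -0.89 ± 0.26, and Adam17, at -0.59 ± 0.21, named here after their values were seen, fell as well. Gab1, at -0.77, and Lrig1, a receptor inhibitor, at -0.24, also fell.

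In Apoe knockout astrocytes palmitic acid went with 11 rises and 18 falls among the 35 genes (16 and 14 with median-ratio scaling), where 75.3% of all 16161 genes passed, 3222 higher and 8946 lower. Of the targets of ERK 4 rose and 3 fell, and of the feedback inhibitors 4 rose and 4 fell (6 and 4 scaled). Phlda1 rose by 1.12, Myc by 1.49, Spry2, a Sprouty inhibitor, by 1.17 and Shc1 by 1.03. Timp3 fell by 2.54, Gab1 by 1.69, Spry1 by 1.44 and Ccnd1, the gene of cyclin D1, by 0.99. The test of the difference between genotypes called 2 genes higher and 23 lower in the knockout response (3 and 19 scaled), where 57.6% of all genes passed, 2319 higher and 6985 lower. Among the lower were 7 of 8 targets of ERK and 9 of 10 feedback inhibitors (7 and 6 scaled), with medians of -1.48 and -1.01, against -0.35 over all genes. Dusp5 differed by -2.37, Phlda1 by -2.27, Spry1 by -1.67 and Ccnd1 by -1.52, and Shc1 by 0.53 and Rhbdf1 by 0.49.

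Oleic acid and neuronal medium gave fewer calls in knockout astrocytes. With oleic acid, 1 gene rose and 9 fell of 35 in knockout astrocytes, where 41.8% of all genes passed, 3502 higher and 3247 lower. Lrig1 rose by 0.22, and Myc was at -0.65, Timp3 at -0.49, Spry4 at -0.45 and Dusp5 at -0.32. In wild-type astrocytes 14 rose and 11 fell with oleic acid, which became 9 and 14 with median-ratio scaling. Of all genes 59.8% passed there, 5050 higher and 4619 lower. The targets of ERK counted 6 rises and 2 falls there (3 and 2 scaled). Dusp5 rose by 1.36, Phlda1 by 1.26, Shc1 by 1.01 and Erbb2, a receptor that pairs with Egfr, by 0.82, while Spry1 fell by 1.51, Timp3 by 1.43, Dusp6, a cytoplasmic ERK phosphatase, by 0.84 and Spry2 by 0.80. With neuronal medium 8 rose and 10 fell in knockout astrocytes, where 31.2% of all genes passed, 3019 higher and 2030 lower. Of the 8 targets of ERK, 0 rose and 5 fell (median -0.54). Phlda1 fell by 1.20, Dusp4, another nuclear ERK phosphatase, by 1.25, Dusp5 by 0.67 and Ccnd1 by 0.63, and Erbb4 rose by 0.92, Lrig1 by 0.87, Gab1 by 0.74 and Rhbdf1 by 0.31. In wild-type astrocytes limma called 0 of 35 with neuronal medium, where 6 had an unadjusted p under 0.05, and 0 of 35 between the neuronal media, where 8 had.

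**Figure D3:**
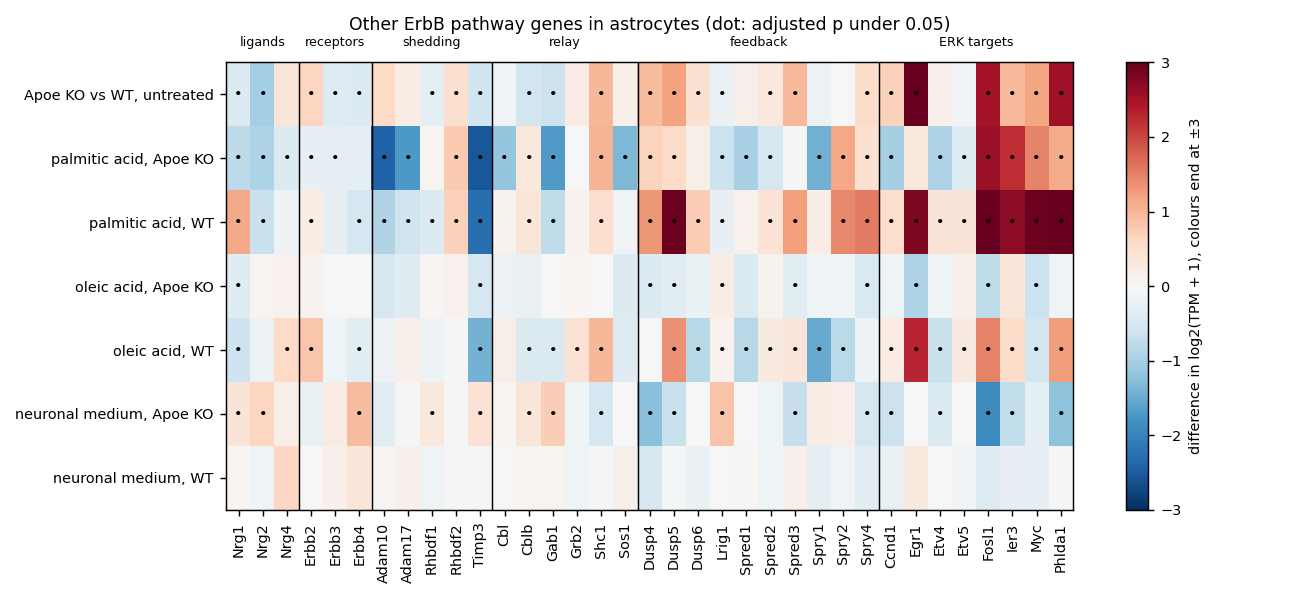
Difference in log2(TPM + 1) of the 35 other pathway genes measured in astrocytes (columns, by list) in 7 comparisons (rows, each against untreated astrocytes of the same genotype except the first); red higher, blue lower, dots an adjusted p under 0.05 over all genes, colours ending at ±3. All 8 ERK targets carry a dot and are higher in wild-type astrocytes with palmitic acid.

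Neighbours of the chromosome 5 ligands did not share one pattern. Epgn, which encodes the ligand epigen and starts the stretch of 375531 bases that ends with Btc, averaged at most 0.0967 TPM in any astrocyte group. Gm19610, an antisense gene that shares 152 bases with Ereg, was at 10.2 ± 4.56 TPM in knockout astrocytes with palmitic acid and 12.9 ± 1.81 TPM in untreated knockout ones, against 7.49 ± 2.58 TPM in wild type with palmitic acid and 2.19 ± 0.279 TPM in untreated wild-type ones (SD, n = 3 each). The strand setting of the counting is not given, so reads in the shared bases cannot be told apart. The chemokine gene Cxcl1 was at 26.6 ± 4.94 TPM in knockout and 60.4 ± 24.1 TPM in wild-type astrocytes with palmitic acid, against 0.377 TPM in untreated wild-type ones, and Mthfd2l, between the chemokines and the ligands, averaged 11.3 to 21.7 TPM over the 9 groups.

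**Figure D4:**
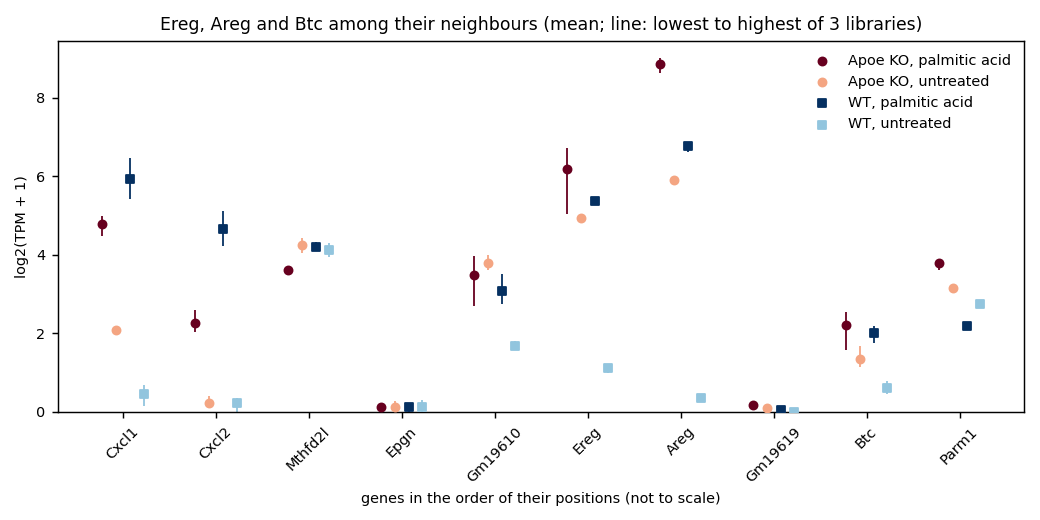
Level as log2(TPM + 1) of Ereg, Areg, Btc and the genes beside them, in the order of their positions and not to scale, in 4 astrocyte groups; points are means and lines run from the lowest to the highest of 3 libraries. Ereg and Areg differ between untreated genotypes, at 29.7 and 59.2 TPM in knockout against 1.18 and 0.277 TPM in wild-type astrocytes, while Epgn stays near 0.

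Genes with the most similar pattern were taken as the 3 with the highest Pearson correlation of log2(TPM + 1) over the 9 astrocyte group means, among 13538 candidates, as a description with groups that share genotype and treatment. For Areg they were Plaur (0.993), the urokinase receptor gene, Slc25a37 (0.993) and Rcc2 (0.991). Plaur was at 335 ± 3.0 TPM in knockout and 145 ± 7.85 TPM in wild-type astrocytes with palmitic acid, and at 86.4 ± 3.35 TPM in untreated knockout, against 7.07 ± 1.24 TPM in untreated wild-type ones. For Ereg they were Areg (0.991), Epha2 (0.988) and Tnk2 (0.988), for Errfi1 Ubr2 (0.989), Pabpc4 (0.986) and Sgk1 (0.985), and for Btc Grem1 (0.995), Hmga2 (0.988) and Fam110c (0.985). For Hbegf they were Fam136a (0.985), Cry1 (0.982) and Pim1 (0.982), and for Egfr Dnajc3 (0.962), Nell2 (0.950) and Grb10 (0.932). For Egf the highest was Cdkl2, at 0.892.

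In brain, where fewer cells of a type and less RNA per cell cannot be told apart, Areg and Ereg were scarcely present and Tgfa, Errfi1 and Hbegf were the most abundant of the genes. Over the 25 brain libraries Errfi1 was at 14.18 to 38.6 TPM, Tgfa at 4.95 to 26.3 TPM, Hbegf at 5.08 to 31.3 TPM and Egfr at 0.75 to 5.41 TPM. Ereg did not exceed 0.160 TPM, Btc 1.25 TPM or Egf 3.74 TPM. Areg, analysed in 12 brain libraries, had a median of 0.035 TPM and did not exceed 2.82 TPM. Only 4 of the 8 genes passed the filter of 1 TPM in 3 libraries in the first KA cohort and in the CNO model: Hbegf, Tgfa, Egfr and Errfi1.

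The CNO model held the clearest difference in brain. Hbegf was at 14.43, 19.26 and 31.3 TPM with CNO, against 9.11, 5.64 and 6.55 TPM untreated, without overlap and with a log2 difference of 1.44 ± 0.28. It passed the threshold over all genes in this fit, as 3.7% of 15453 genes did, and in 5 of 10 alternative settings, with values of 1.15 without the third CNO library and 1.68 without the first. Areg was at 0.07, 2.82 and 2.24 TPM with CNO and listed at 0 in all 3 untreated libraries, and Btc was at 0.83, 0.82 and 1.25 TPM with CNO, against 0.41, 0.19 and 0.24 TPM untreated. Tgfa, Egfr, Errfi1 and Egf overlapped between the groups, with Errfi1 at 24.63, 23.43 and 26.35 TPM with CNO, against 23.47, 25.72 and 28.04 TPM untreated. Astrocyte markers summed to 4066 to 4239 TPM with CNO, against 1882 to 2130 TPM untreated, and microglial ones to 477 to 588 TPM, against 202 to 215 TPM, and their part in the Hbegf difference was not tested. Of the other pathway genes limma called 0 of 35, where 7 had an unadjusted p under 0.05. With the replicate number as a block, it called 2, chosen here after their values were seen: Adam17, which was higher by 0.60, and Etv4, a transcription factor induced by ERK, at -0.83. That pairing of the CNO libraries by number was taken from the data alone, no label gives it, and the first fit has no block.

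In the first KA cohort Hbegf was at 6.69, 9.0 and 7.02 TPM with KA, against 6.09, 6.14 and 5.08 TPM untreated, and Btc at 0.53, 0.78 and 0.89 TPM, against 0.21, 0.06 and 0.07 TPM. Neither overlapped, a description with no count over all genes beside it. For Hbegf the difference was 0.33 ± 0.21 against a median of 0.25 over all genes, and Btc did not pass the filter. The third untreated library was low for Tgfa, Egfr and Errfi1, at 4.95, 0.75 and 14.18 TPM, while the other untreated libraries had 15.34 and 16.43 TPM of Tgfa, 2.68 and 2.83 TPM of Egfr, and 23.72 and 27.16 TPM of Errfi1. With KA Tgfa was at 14.96 to 18.32 TPM, Egfr at 2.70 to 5.41 TPM and Errfi1 at 25.29 to 26.56 TPM. Astrocyte markers summed to 2363 to 3948 TPM with KA, against 1376 to 1924 TPM untreated. Microglial markers summed to 461 to 1148 TPM with KA, against 210.1 to 232 TPM untreated, and those of choroid plexus and ependyma to 1504 to 2271 TPM, against 141 to 1104 TPM. Their part was not tested. Of the 4 genes tested 0 passed (0.183% of 15331 genes did), and 0 of 4 had an unadjusted p under 0.05 by limma. Limma called 0 of 34 other pathway genes, where 7 had an unadjusted p under 0.05, and without the third untreated library it called 3, Lrig1 higher by 1.28 and Egr1 and Dusp6 lower, chosen here after their values were seen.

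In the second cohort Errfi1 was the only 1 of the 7 genes analysed with groups that did not overlap in TPM. The share of all genes without overlap was not counted, so this describes the libraries alone. It was at 26.67, 28.45, 28.38 and 31.47 TPM with KA, against 35.30, 38.55 and 36.27 TPM untreated, a count difference of -0.34 ± 0.08 in log2. Against the same 4 KA libraries it was at 37.85, 34.20 and 35.01 TPM in Apoe knockout brain with KA, which did not overlap (0.26 ± 0.08), and at 33.96, 34.26 and 30.45 TPM in the libraries labelled A2aR knockdown, which did (0.28 ± 0.08). The 3 comparisons share these KA libraries, so their directions are not independent. Xist was at 0.0255 to 0.272 TPM with KA, against 122 to 145 TPM untreated, so KA and sex cannot be told apart in that comparison. Hbegf was at 5.26, 14.3, 7.86 and 8.34 TPM with KA, against 9.79, 13.2 and 12.1 TPM untreated (-0.46 ± 0.17), and at 7.95 to 9.83 TPM in Apoe knockout brain with KA and 6.89 to 7.84 TPM in the libraries labelled A2aR knockdown. In raw counts, not scaled to library totals, Hbegf did not overlap, at 398 to 654 with KA, against 682 to 855 untreated. Tgfa, Egfr, Egf and Btc overlapped in TPM in each comparison. In raw counts Tgfa did not overlap, at 3348 to 3612 in the libraries labelled A2aR knockdown, against 2647 to 3321 with KA alone. Library totals there were 69740641 to 76643829 and 68760648 to 74445917, and their part in these narrow gaps was not tested. Ereg had 0 to 23 counts a library. By edgeR, 0 of 7 of these genes passed with KA (0.0558% of 23318 genes did), in knockout brain (0.112%) or with the knockdown label (0.0386%), and 2, 1 and 1 had an unadjusted p under 0.05, while DESeq2 called 1, 0 and 0. EdgeR called 0 of 36 other pathway genes in each, where 7, 5 and 12 had an unadjusted p under 0.05 and DESeq2 called 2, 1 and 5.

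**Figure D5:**
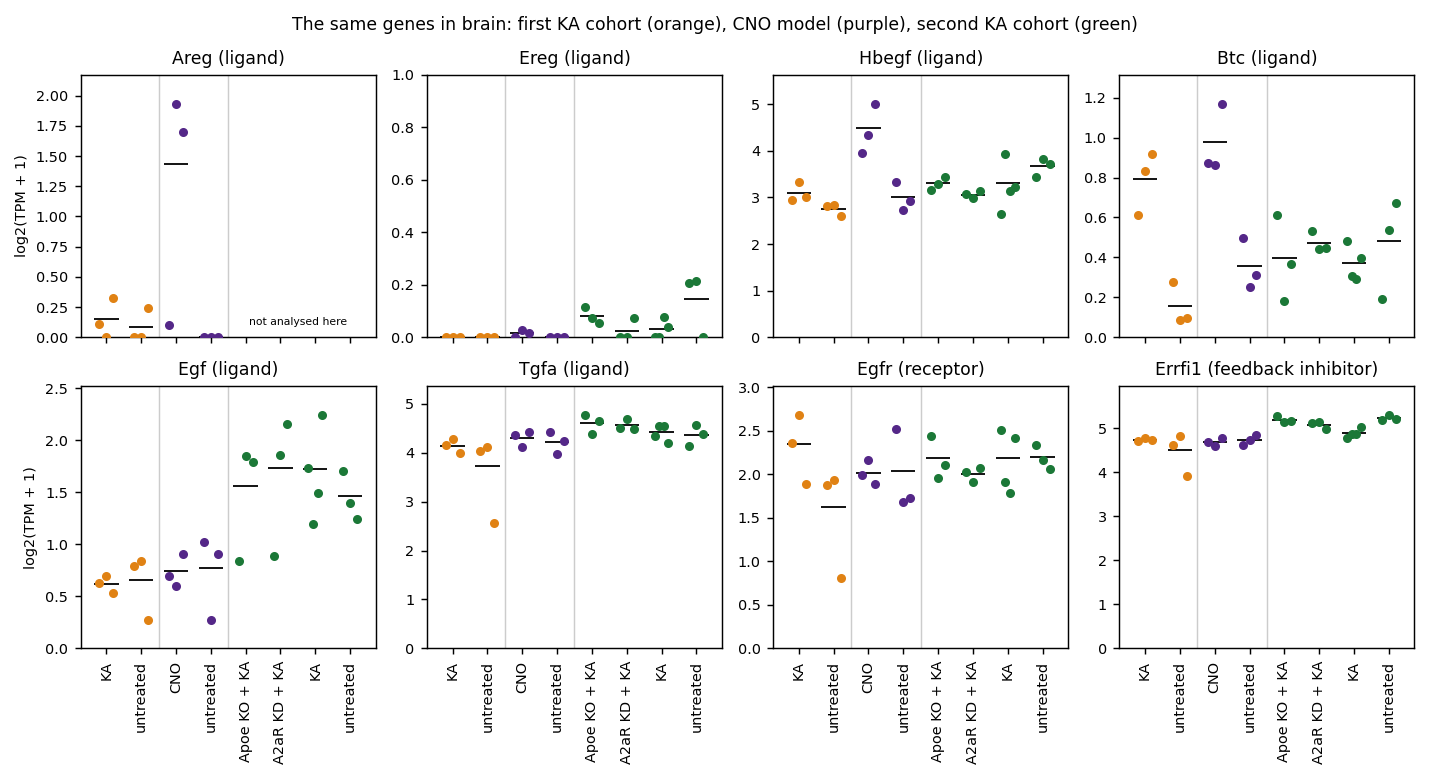
Level of each gene as log2(TPM + 1) in the 25 brain libraries (12 for Areg, not analysed in the second cohort), each panel on its own axis; points are libraries, lines the group means, orange the first KA cohort, purple the CNO model and green the second KA cohort, where KO is knockout and KD knockdown as labelled. Hbegf with CNO, at 14.43 to 31.3 TPM, lies above its untreated libraries, and the 3 tables were made separately, so levels are compared within a colour.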

How the data were processed

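RNA was read out by Illumina TruSeq sequencing in 52 libraries, grouped by their labels. HISAT2, StringTie, RSEM and mm10 are named, without roles, per the submitters' processing notes. The authors deposited TPM per gene for the first KA cohort, the CNO model and the astrocytes, and whole-number counts with TPM per gene for the second KA cohort, a unit read from the values where no header states it. Each table was made separately, so tests stay within a table.

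In R 4.3.3, limma 3.58.1 (trend option on) compared log2(TPM + 1) for every gene that reached 1 TPM in 3 or more libraries; adding 1 understates changes of low genes. Counts were tested with edgeR 4.0.16 (quasi-likelihood, TMM) and, as an alternative, DESeq2 1.42.0. Counts weigh no transcript length, so their differences can depart from those in TPM. For Hbegf in the libraries labelled A2aR knockdown against KA alone, the log2 count difference was 0.06 and the ratio of mean TPM 0.82. The cause of that departure was not tested. All groups of the astrocytes, and of the second cohort, entered 1 fit. Benjamini-Hochberg adjustment ran over all genes tested, and an adjusted p under 0.05 is called. The fits were tested on simulated data. How many of all genes lack overlap between groups was not counted, so each lack of overlap given here is a description.

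The 8 genes, the 37 other pathway genes, the marker lists and the tests were chosen with earlier results of these data known. Of other pathway genes past the threshold, up to 4 a direction with the smallest p are named per comparison. The genes most alike to Tgfa are not reported here. Promoters came from RefSeq. Whether libraries of a group stem from separate mice or cultures is not stated, and if they do not, p-values capture technical spread alone. Same-numbered CNO libraries deviated together (correlations 0.119 to 0.244), so the numbers were taken to pair them from the data alone; no label names a shared animal. Titles of the third untreated and the third palmitic acid library of Apoe knockout astrocytes carry "mix", whose meaning is not given.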

Additional observations from a re-analysis of the deposited data

Results flagged for a closer look

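The values here are differences in log2(TPM + 1) response between genotypes (Apoe knockout minus wild-type astrocytes, 3 libraries a group) that passed an adjusted p of 0.05 in limma's interaction test over all genes. The 8 genes chosen by name are a description, since their levels were known.

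With palmitic acid the responses differed by -3.478 for Areg, -3.1636 for Ereg, -1.3316 for Hbegf, -1.3799 for Tgfa, -1.4524 for Errfi1 and 0.3565 for Egfr, the last called in 9 of 18 alternative settings. Among other pathway genes they differed by -2.3707 for Dusp5, -2.2746 for Phlda1, -1.6674 for Spry1, -1.5185 for Ccnd1, 0.5318 for Shc1 and 0.4917 for Rhbdf1. The median of all genes was -0.35, and -0.06 with median-ratio scaling.

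With oleic acid they differed by -3.6639 for Areg, -2.5566 for Ereg, -2.3378 for Errfi1, -1.2598 for Tgfa and -0.797 for Hbegf. Among other pathway genes they differed by -3.1923 for Egr1, -1.682 for Dusp5, -1.3942 for Phlda1 and -1.0167 for Shc1, and by 1.3783 for Spry1, 0.9361 for Timp3, 0.6843 for Spry2 and 0.6393 for Dusp6.

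With neuronal medium they differed by -2.6934 for Areg, -1.7996 for Ereg and -1.0494 for Errfi1. Among other pathway genes they differed by -1.1427 for Phlda1, -0.838 for Spred3, -0.7766 for Dusp4 and -0.651 for Dusp5, and by 0.8548 for Lrig1, 0.6613 for Gab1, 0.5093 for Spry1 and 0.4459 for Rhbdf1. Spry1 was called in 14 of 18 alternative settings and the other pathway genes in all of them.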

How the results depend on the processing

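Counts of other pathway genes past the threshold took both directions together. They were within 1.5 times their first value in 191 alternatives and not in 10, all starting from 0. The 191 include leaving out both libraries titled mix (an alternative added after seeing the data). In the CNO model 1 gene passed with median-ratio scaling and 2 with the replicate block. With DESeq2, 5 passed for the A2aR knockdown label, 1 for Apoe knockout brain with KA and 2 for KA in the second cohort, where the replicate block gave 1; same-numbered libraries did not deviate together there, and the knockdown libraries share 1 number with the KA ones, so no block was fitted for them. Leaving out 1 library gave 0 to 3 in the first KA cohort (3 without the third untreated library) and 0 to 4 between the neuronal media (4 without the third neuronal medium library, 1 without the second, and 1 without the third knockout neuronal medium library). The causes were not tested. A count that stayed within 1.5 times can still change its split between directions. Median-ratio scaling did this for oleic acid in wild-type and palmitic acid in knockout astrocytes, as given above. For the 8 genes 1395 values moved by less than the spread between replicates, 80 by more, and 0 called ones reversed. The replicate block changed no other count by over 1.5 times. In TPM tables the depth is unknown, which limits what the genes near 0, Areg and Ereg in brain and Egf in astrocytes, can show.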
